A study of Mus musculus with 2 samples.

Results

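The EGR genes Egr1, Egr2, Egr3 and Egr4 and the NR4A genes Nr4a1, Nr4a2 and Nr4a3 encode transcription factors of the immediate early class. They were chosen by gene symbol, and all 7 were found among the 53465 genes of the table, 22040 of which are protein-coding. Expression was compared in endothelial cells, which line blood vessels, isolated from C57Bl/6 mice of genotype tie2-cre after treatment with NeuroD1, a neuronal transcription factor, or with GFP, a fluorescent protein used as the control. Each treatment had 1 library, so 2 libraries in all, and no difference below has a replicate check. The labels' protocols say that cells of 3 mice were collected and 10000 cells lysed for reverse transcription with DRUG-seq primers, which tag the 3' end of the RNA. The tie2-cre allele places Cre recombinase under the Tie2 promoter, which is active in endothelium and also in some blood cells, and it was carried by the mice of both groups. The labels name no age, vector, dose or time after treatment.

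Immediate early genes are transcribed within minutes of a growth factor, shear stress, calcium or stress signal, without new protein synthesis, and their RNAs are short-lived. EGR proteins bind GC-rich DNA through zinc fingers, and the corepressors NAB1 and NAB2 bind EGR proteins and limit their activity. NR4A proteins are orphan nuclear receptors whose ligand pocket is filled by side chains, so that their amount rather than a ligand sets much of their activity, and NR4A1 and NR4A2 can pair with retinoid X receptors. Serum response factor with its ETS partners drives EGR genes, CREB and MEF2 factors drive NR4A genes, and in endothelial cells vascular endothelial growth factor is known to induce members of both families.

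Levels are in FPKM, fragments per kilobase of exon with a scaling for each library, and the value of 1 read could be worked out from them. Recovered reads came to 2001426 in the NeuroD1 library and 2011130 in the GFP library, of which 57.4% and 52.3% fell in genes above 1000 FPKM. These totals are nearly equal, whereas 1 read was worth 1.13 times as much FPKM in NeuroD1 as in GFP, so the deposited scaling does not follow the recovered totals, and its basis was not given in the sources used here. Neurod1 itself stood at 182 FPKM (970 reads) in the NeuroD1 library and 0.664 FPKM (4 reads) in the GFP library. The 14 endothelial markers were all at or above 1 FPKM in one library or both, as were 20697 of the 22040 protein-coding genes. The 14 markers summed to 204.8 FPKM in NeuroD1 and 190.3 FPKM in GFP, and 9 of them had a higher value in NeuroD1. Among these 9, Kdr (198 reads in NeuroD1 and 199 in GFP), Slc2a1 (246 and 259) and Cdh5 (60 and 61) had fewer reads in NeuroD1. Their higher values therefore come from the scaling. Cdh5 is named after its values were seen. Receptors for odours, pheromones and taste, which endothelial cells are not known to use, give a scale for background: their 95th percentile was 4.79 FPKM in NeuroD1 and 4.39 FPKM in GFP, and their median 1.40 and 1.54 FPKM. The ranges given with each FPKM are exact Poisson 95% limits, those given with each ratio are exact Clopper-Pearson 95% intervals, and both cover counting error only.

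Of the 7 members, Egr1, Egr2 and Nr4a1 stood lower in the NeuroD1 library with an interval of the FPKM ratio below 1. Nr4a2 and Nr4a3 were lower with intervals that held 1, and Egr3 and Egr4 were higher with intervals that held 1. The difference in log2(FPKM + 1), NeuroD1 minus GFP, was below 0 for 5 of the 7, against 51.6% of 20697 protein-coding genes with at least 1 FPKM in one library or both. The members had a median difference of -0.32, and those genes a median of -0.02. In bulk RNA, fewer cells that express a gene and less RNA per cell cannot be told apart.

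Nr4a1, also known as Nur77, was the most abundant member. It stood at 16.2 FPKM (12.8 to 20.2) in NeuroD1 and 26.7 FPKM (22.6 to 31.4) in GFP, and the limits did not overlap. The ratio of NeuroD1 over GFP was 0.605 (interval 0.454 to 0.802), a log2(FPKM + 1) difference of -0.69. The gene (ENSMUSG00000023034) lies on the plus strand of GRCm38 chromosome 15, from 101254269 to 101274795. Its FPKM values do not give whole reads with the 3509 bases of merged exon in GENCODE M21, but the fraction between the libraries does at 2474 bases, with 78 reads in NeuroD1 and 146 in GFP, or at 3711 bases, with 117 and 219. The ratio is the same for both, the interval at 3711 bases was 0.479 to 0.761, and the limits above use the shorter length, which gives the wider interval.

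Nr4a2, known as Nurr1 and required for midbrain dopamine neurons, stood at 6.82 FPKM (5.12 to 8.90) in NeuroD1, from 54 reads, and 8.36 FPKM (6.58 to 10.5) in GFP, from 75 reads. Its limits overlapped, and the ratio was 0.816 (interval 0.564 to 1.17). The gene (ENSMUSG00000026826) is on the minus strand of chromosome 2, from 57106830 to 57124003. Nr4a3, or NOR-1, stood at 2.83 FPKM (1.95 to 3.97) in NeuroD1, from 33 reads, and 3.78 FPKM (2.81 to 4.98) in GFP, from 50 reads. Its ratio of 0.748 (interval 0.467 to 1.18) lay between those of Nr4a1 and Nr4a2, and the limits of the libraries overlapped. It is on the plus strand of chromosome 4, from 48045153 to 48086447 (ENSMUSG00000028341). Thus all 3 NR4A genes were lower in NeuroD1 by their values, with counting error setting apart Nr4a1 alone.

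Egr1, the most widely induced member of its family and a regulator of tissue factor and growth factor genes, stood at 7.43 FPKM (5.74 to 9.47) in NeuroD1, from 65 reads, and 13.3 FPKM (11.2 to 15.8) in GFP, from 132 reads. The limits did not overlap, and the ratio was 0.558 (interval 0.408 to 0.756), a log2(FPKM + 1) difference of -0.76. In rank among protein-coding genes, Egr1 was at percentile 91.4 in NeuroD1 and 98.1 in GFP, whereas Nr4a1 was at 98.5 and 99.4. Egr1 (ENSMUSG00000038418) is on the plus strand of chromosome 18, from 34859823 to 34864984.

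Egr2, also called Krox20 and needed for hindbrain patterning and for myelination by Schwann cells, had the lowest ratio, 0.412 (interval 0.194 to 0.818). It stood at 1.81 FPKM (0.936 to 3.16) in NeuroD1, from 12 reads, and 4.40 FPKM (3.03 to 6.17) in GFP, from 33 reads, with limits that overlapped slightly. In NeuroD1 this level exceeded 64.9% of chemoreceptor genes, and in GFP 95%, so that Egr2 lay within the background range in the NeuroD1 library and at its upper edge in the GFP library. The gene (ENSMUSG00000037868) is on the plus strand of chromosome 10, from 67535475 to 67542188.

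Egr3, which acts in muscle spindle development and in the endothelial response to vascular endothelial growth factor, stood at 5.24 FPKM (3.82 to 7.01) in NeuroD1 and 4.62 FPKM (3.37 to 6.19) in GFP. Both libraries held 45 reads, so that its ratio of 1.13 (interval 0.732 to 1.75) is the scaling between the libraries and nothing else. When the FPKM of each library were made to sum to one total, Egr3 had a difference of -0.05 in place of 0.15, so its direction depends on the scaling. Egr4, a factor of neurons and male germ cells, stood at 1.91 FPKM (0.824 to 3.76) in NeuroD1, from 8 reads, and 0.843 FPKM (0.230 to 2.16) in GFP, from 4 reads. It was the only member with fewer than 20 reads over both libraries, and its ratio of 2.27 had an interval of 0.607 to 10.3. Egr4 exceeded 68.3% of chemoreceptor genes in NeuroD1 and 16.2% in GFP. Egr3 (ENSMUSG00000033730) is on the plus strand of chromosome 14, from 70077203 to 70082614, and Egr4 (ENSMUSG00000071341) on the minus strand of chromosome 6, from 85511121 to 85513589. No other gene of GENCODE M21 overlaps any of the 7 members.

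**Figure D1:**
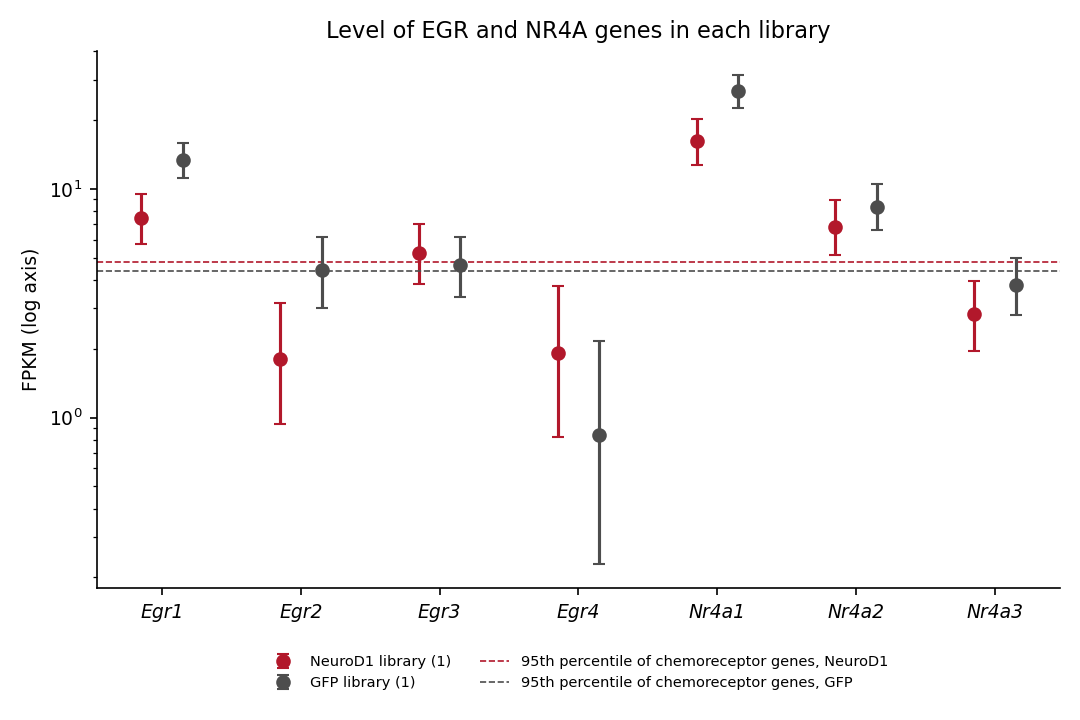
FPKM of each member on a log axis, with the NeuroD1 library in red to the left of the GFP library in grey; points are 1 library each, bars are 95% Poisson limits and dashed lines the 95th percentile of chemoreceptor genes. Nr4a1 and Egr1 lie above the dashed lines in both libraries with bars that do not overlap, while Egr4 and Nr4a3 have points below them in both.

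On the FPKM scale, the order of levels in NeuroD1 was Nr4a1, Egr1, Nr4a2, Egr3, Nr4a3, Egr4 and Egr2. Because reads of a 3' tag method do not grow with gene length, division by length can shift genes against each other, so the order holds on this scale only. The step between Nr4a1 and Egr1 alone exceeded the counting limits there, while every other neighbour overlapped the next. In GFP the order was Nr4a1, Egr1, Nr4a2, Egr3, Egr2, Nr4a3 and Egr4, with separate limits at each of the first 3 steps and between Nr4a3 and Egr4. The limits of Egr1 and Nr4a2 were therefore apart in GFP and overlapped in NeuroD1. Of the 7 members, Nr4a1, Egr1, Nr4a2 and Egr3, 4 in all, exceeded the 95th percentile of chemoreceptor genes in both libraries.

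Summed over the family, EGR genes had 130 reads in NeuroD1 and 214 in GFP, a ratio of 0.688 (interval 0.549 to 0.860). NR4A genes had 165 reads in NeuroD1 and 271 in GFP, with Nr4a1 at its shorter length, a ratio of 0.690 (interval 0.565 to 0.840). The EGR ratio was 0.998 times the NR4A ratio, with an exact interval of 0.737 to 1.35. Without Egr1, the other 3 EGR genes had 65 and 82 reads and a ratio of 0.898 (interval 0.638 to 1.26), and without Nr4a1 the other 2 NR4A genes had 87 and 125 reads and a ratio of 0.788 (interval 0.593 to 1.04). Egr1 made up 45.3% of the summed EGR level in NeuroD1 and 57.5% in GFP, while Egr3 made up 32.0% and 19.9%. Nr4a1 made up 62.6% of the summed NR4A level in NeuroD1 and 68.7% in GFP.

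The ratios of the members were also set against each other, in 21 pairs. In 5 pairs the exact interval of one ratio over the other excluded 1, with no adjustment for the number of pairs, and all 5 involve Egr3 or Egr4. The Egr1 ratio was 0.494 times that of Egr3 (interval 0.287 to 0.847), and the Egr2 ratio 0.366 times that of Egr3 (interval 0.152 to 0.839). Egr3 had 1.87 times the ratio of Nr4a1 (interval 1.10 to 3.17). Against Egr4, with its 12 reads in all, Egr1 had 0.248 times the ratio (interval 0.0527 to 0.966) and Egr2 0.188 times (interval 0.0347 to 0.855). Egr1 and Nr4a1, the most abundant genes of their families, had ratios whose quotient was 0.922 (interval 0.602 to 1.41).

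**Figure D2:**
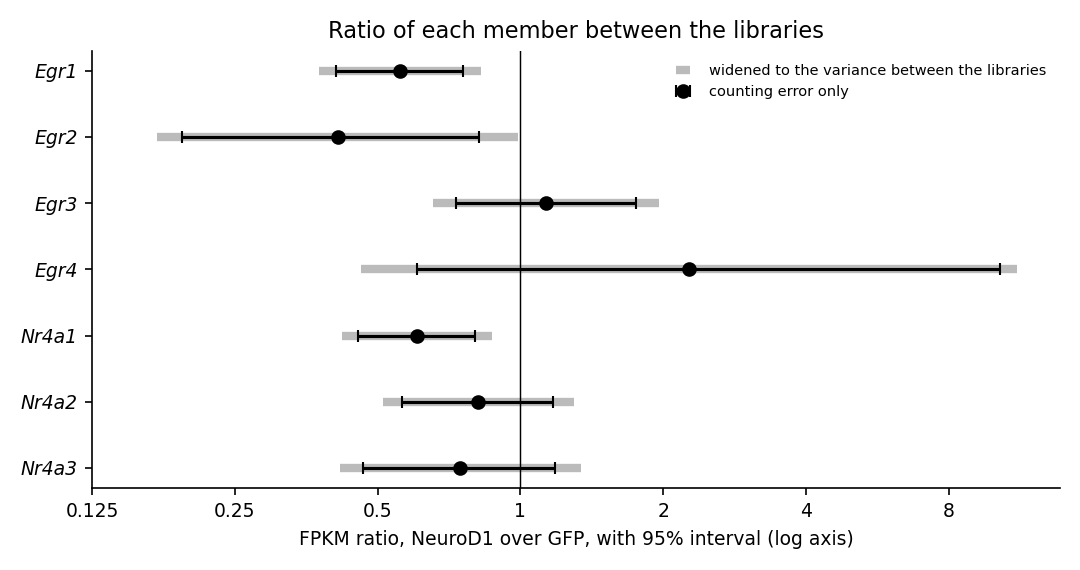
Ratio of FPKM in NeuroD1 over GFP for each member on a log axis, where the line marks a ratio of 1; black bars are 95% intervals from counting error and grey bars the same widened to the variance between the libraries. Egr1, Egr2 and Nr4a1 lie below 1 with both kinds of bar, and the bars of the other 4 members cross 1.

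How common such differences were in the table sets the weight of these counts. No member passed a log2(FPKM + 1) difference of 1 or -1 among the 4 with at least 5 FPKM in one library or both, and of 6408 protein-coding genes past that minimum 3.31% were at -1 or less and 3.25% at 1 or more. Among the 6 members with at least 20 reads, 3 had an interval below 1 and none an interval above 1. Over 14791 protein-coding genes that reached 20 reads, the interval was below 1 in 6.22% and above 1 in 5.93%, and of the 8972 in the members' range of mean FPKM 6.19% had one below 1. Over those 14791 genes the libraries varied more than counting alone gives, by 1.76 times in variance. With intervals widened to that variance, 3 members stayed below 1, against 2.30% of the 14789 genes with reads in both libraries. The widened intervals were 0.376 to 0.827 for Egr1, 0.420 to 0.871 for Nr4a1 and 0.171 to 0.990 for Egr2, the last with its upper end next to 1.

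The median difference was 0.17 over the 778 protein-coding genes with a mean of at least 10 FPKM, so each member was also placed beside the 200 protein-coding genes nearest to it in mean FPKM. The 200 genes near Nr4a1 had a median difference of 0.20, and 26.0% of them were below 0. Their central 95% ran from -0.78 to 1.29, and Nr4a1, at -0.69, lay near the lower end. Those near Egr1 had a median of 0.08 and a central range of -0.74 to 1.07, and Egr1, at -0.76, lay just below it. Those near Egr2 ran from -0.95 to 0.97, and Egr2, at -0.94, lay just within. Those near Egr4 ran from -1.90 to 1.13, with Egr4 at 0.66. Nr4a2, at -0.26, lay in a range of -0.72 to 0.73, Nr4a3, at -0.32, in one of -0.95 to 0.89, and Egr3, at 0.15, in one of -0.86 to 0.70, so these 4 lay well inside.

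**Figure D3:**
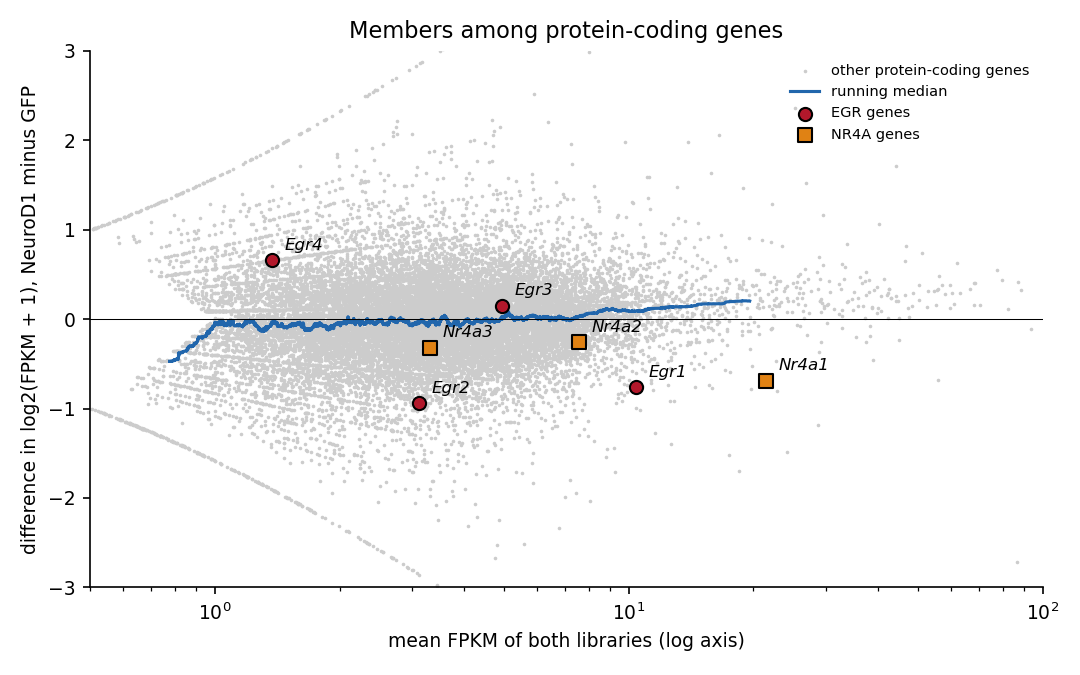
Difference in log2(FPKM + 1), NeuroD1 minus GFP, against the mean FPKM of both libraries on a log axis; grey points are other protein-coding genes with at least 1 FPKM in one library or both, the blue line their running median, and coloured points the members. Egr1 and Nr4a1 lie below most grey points at their level, at -0.76 and -0.69, while Egr3 lies near the line, at 0.15; genes beyond 3 or -3 or above 100 FPKM are not drawn.

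The genes with values most like those of Egr1 and Nr4a1 were sought by the distance in log2(FPKM + 1) over the 2 libraries, a measure that rests on 2 values per gene. Closest to Egr1 were Sqstm1, an autophagy receptor, at 7.79 FPKM in NeuroD1 and 13.4 FPKM in GFP (distance 0.060), Sap18b at 7.80 and 13.8 FPKM (0.075), and Canx, a chaperone of the endoplasmic reticulum, at 7.43 and 12.5 FPKM (0.081). Among the 3 closest to Nr4a1 were Junb, an AP-1 subunit of the immediate early class, at 16.0 FPKM in NeuroD1 and 23.6 FPKM in GFP (distance 0.17), and the predicted gene Gm17651 at 14.2 and 25.1 FPKM (0.19), which rests on 1 and 2 reads.

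The corepressors of EGR and the partners of NR4A were mostly higher by their values in NeuroD1. Of 7 such genes, 6 were above 0 and 1 below, while 51.6% of all protein-coding genes with at least 1 FPKM were below 0. The median difference was 0.43, and of the 6 with at least 20 reads none had an interval below or above 1. Nab1 stood at 4.25 FPKM in NeuroD1 and 3.42 FPKM in GFP (ratio 1.24, interval 0.741 to 2.09). Nab2, itself a known EGR target, stood at 2.96 FPKM in NeuroD1 and 1.54 FPKM in GFP, from 17 and 10 reads (ratio 1.93, interval 0.833 to 4.71). The retinoid X receptor genes Rxrb, at 4.16 and 2.69 FPKM, and Rxrg, at 2.68 and 1.58 FPKM, were also higher by their values. Whole reads were not recovered for Rxrb, so it has no interval. All of these levels lie below the 95th percentile of chemoreceptor genes.

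Upstream factors were split in direction. Of 16 genes of the SRF, ETS, CREB and MEF2 groups, 7 were below 0 and 9 above, with a median of 0.05. Against 6.22% of all protein-coding genes with at least 20 reads, 1 of 15 had an interval below 1. That gene was Mkl1, a coactivator of serum response factor, at 1.34 FPKM in NeuroD1 and 2.81 FPKM in GFP (ratio 0.477, interval 0.248 to 0.876). Both levels of Mkl1 lie within the background range. The chemoreceptor median was 1.40 FPKM in NeuroD1, and the 95th percentile in GFP was 4.39 FPKM. Elk3, an ETS partner of serum response factor, had 71 reads in NeuroD1 and 67 in GFP (ratio 1.20, interval 0.847 to 1.70), and Mef2b at 5.84 and 9.35 FPKM (interval 0.317 to 1.19). Among 19 MAP kinase pathway genes, 9 were below 0 and 10 above, with a median of 0.04. Of the 15 with at least 20 reads, 1 had an interval below 1 and 2 had one above 1, against 6.22% and 5.93% of all such protein-coding genes. The gene below 1 was the phosphatase Dusp16, named after its values were seen, with 38 reads in NeuroD1 and 74 in GFP (ratio 0.582, interval 0.383 to 0.871). Those above 1 were the kinases Map2k2 at 9.87 FPKM in NeuroD1 and 5.84 FPKM in GFP (ratio 1.69, interval 1.25 to 2.31) and Rps6ka3 at 14.2 and 11.3 FPKM (ratio 1.25, interval 1.03 to 1.52). The phosphatases Dusp1 and Dusp2, which switch MAP kinases off and are themselves immediate early genes, had lower values, Dusp1 at 18.8 and 26.5 FPKM and Dusp2 at 0.512 and 2.26 FPKM from 2 and 10 reads.

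Genes of the endothelial growth factor response had small differences by their median. Of 12 NFAT and VEGF-induced genes, 3 were below 0 and 9 above, with a median of 0.06, and of 9 with at least 20 reads none had an interval below or above 1. The receptors Flt1, at 21.3 FPKM in NeuroD1 and 22.9 FPKM in GFP (interval 0.829 to 1.04), and Kdr, at 11.2 and 9.98 FPKM (interval 0.921 to 1.38), had the highest levels of the list. The largest differences were those of Plaur, the urokinase receptor, at 5.29 and 7.96 FPKM (interval 0.397 to 1.09), and Tfpi2, a protease inhibitor, at 4.99 and 3.89 FPKM (interval 0.603 to 2.76).

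Of 26 other immediate early genes with at least 1 FPKM in one library or both, 21 were below 0, against 51.6% of all such protein-coding genes, with a median of -0.22. Of 23 with at least 20 reads, 4 had an interval below 1 and 1 above, against 6.22% and 5.93% of all protein-coding genes with that many reads. The abundant Fos, at 35.8 FPKM in NeuroD1 and 40.8 FPKM in GFP (ratio 0.876), and Ier3, at 41.3 and 48.8 FPKM (ratio 0.845), stood closer to 1 than Egr1 and Nr4a1. Ier5, at a ratio of 0.201, and Jund, at 1.79, had the largest differences of that list, with intervals of 0.110 to 0.345 for Ier5 and 1.07 to 3.04 for Jund. The other genes of the list with an interval below 1, named after their values were seen, were the AP-1 genes Jun (ratio 0.834, lower end 0.695 and upper end next to 1), Junb (ratio 0.680) and Fosl2 (ratio 0.698, upper end 0.994).

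Values of cell type markers are set here beside those of the members, and their part in the differences of the members was not tested. Of 14 endothelial markers, 9 were above 0, and of 13 with at least 20 reads 4 had an interval above 1 and none below. Over all protein-coding genes with that many reads the shares were 5.93% and 6.22%, which are not matched for level. The list had a median difference of 0.15, beside 0.17 for the 778 protein-coding genes with a mean of at least 10 FPKM. Slc2a1 (36.0 FPKM in NeuroD1 and 33.4 FPKM in GFP) and Cldn5 (31.5 and 33.9 FPKM) had the highest levels, and Egfl7 (9.88 and 5.56 FPKM, ratio 1.78, interval 1.20 to 2.65) and Emcn (4.93 and 3.26 FPKM, interval 0.978 to 2.35) the largest differences. Abcb1a (ratio 1.22, lower end 1.004), Erg (1.39, lower end 1.05) and Vwf (1.34, lower end 1.11), the others above 1, are named after their values were seen. Of 14 neuron markers, 10 were above 0, while 51.6% of all protein-coding genes with at least 1 FPKM were below 0. The neuron markers summed to 87.5 FPKM in NeuroD1 and 68.7 FPKM in GFP. An interval above 1 was found for 3 of 14, against 5.93% of all protein-coding genes with at least 20 reads. The list includes Rbfox3 (31.0 and 26.8 FPKM, from 352 and 344 reads, interval 0.996 to 1.35) and Nrgn (13.8 and 9.97 FPKM). It also includes Snhg11 (5.72 and 2.92 FPKM, interval 1.39 to 2.78) and Nefl (1.06 and 2.28 FPKM). Camk2a (ratio 1.80, lower end 1.15) and Slc17a7 (1.57, lower end 1.04) were the others above 1, named after their values were seen. With equal FPKM totals, which multiply NeuroD1 values by 0.849, the lower ends of Abcb1a, Erg, Vwf, Camk2a and Slc17a7 would fall below 1. Those of Egfl7 and Snhg11 would stay above 1.

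The markers of glia and blood cells gave few intervals off 1. Microglia markers were below 0 for 9 of 11, against 51.6% of all protein-coding genes, with a sum of 43.0 FPKM in NeuroD1 and 46.5 FPKM in GFP and 1 of 6 intervals below 1. Tyrobp stood at 17.7 FPKM in NeuroD1 and 11.5 FPKM in GFP, Aif1 at 6.36 and 6.50 FPKM and C1qc at 0.531 and 1.88 FPKM. Mural cell markers were below 0 for 6 of 8, at 29.4 and 31.9 FPKM in sum, with 1 of 5 intervals below 1, that of Kcnj8 (3 reads in NeuroD1 and 19 in GFP). Acta2 stood at 10.9 and 7.63 FPKM and Myh11 at 4.87 and 5.73 FPKM. Astrocyte markers were split, 4 below 0 and 4 above, at 22.5 and 22.8 FPKM in sum, with Slc1a2 (60 reads in NeuroD1 and 21 in GFP) above 1, Aldh1l1 (11 and 33 reads) below 1, and Gfap (28 and 48 reads) and Gja1 (73 and 91 reads) with intervals that held 1. Oligodendrocyte markers summed to 29.7 and 28.9 FPKM with 0 of 6 intervals off 1, and were led by Cnp (54 and 65 reads) and Mog (20 and 20 reads), with the largest differences in Olig1 (6 reads and 1 read) and Mag (15 and 23 reads). Neutrophil and monocyte markers were split, 4 below 0 and 7 above, at 81.1 and 76.0 FPKM in sum. Of 8 intervals, 1 was below 1, that of Elane (3 and 26 reads), and none above. Ngp (21.8 and 19.3 FPKM), S100a9 (20.6 and 10.4 FPKM) and Retnlg (11.0 and 3.72 FPKM) had higher values in NeuroD1. Ngp had 52 reads in each library, so its difference is the scaling alone. The interval of S100a9 held 1 (0.931 to 4.42), and Retnlg has no interval. S100a8, named after its values were seen, was lower, with 4 reads in NeuroD1 and 12 in GFP. No marker of any list was at 0 in either library. Of the chemoreceptor genes, 96.0% in NeuroD1 and 97.7% in GFP were above 0 too, so a value above 0 does not show that a cell type was present.

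**Figure D4:**
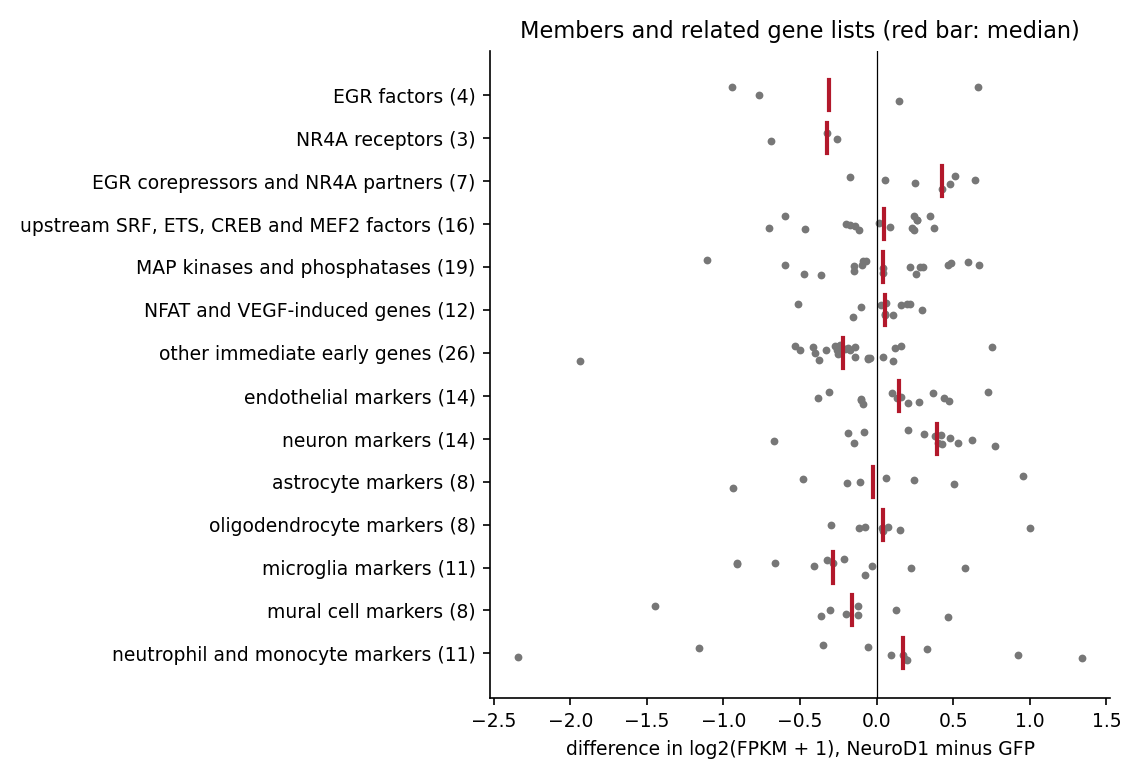
Difference in log2(FPKM + 1), NeuroD1 minus GFP, of each gene with at least 1 FPKM in one library or both (grey points, spread vertically for sight) in each list, with the number of such genes in brackets and the median as a red bar. The medians are -0.31 for EGR, -0.32 for NR4A and -0.22 for other immediate early genes, against 0.43 for the corepressors and partners, 0.05 for upstream factors and 0.06 for NFAT and VEGF-induced genes.

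The promoters of 5 of the 7 members were also compared, and any link between their sequences and the differences of the members was not tested. The set of RefSeq windows used here, on GRCm38.p6, held none for Egr1 and Egr3, so their promoters were not looked at. For the 5 others the 250 bases before the RefSeq start are shown from 5′ to 3′ on the strand of the gene. The gene spans given above are those of GENCODE M21. The windows of Nr4a1 and Egr2 lie wholly inside those spans, and that of Nr4a3 lies partly inside. For Egr2, with 5 listed starts, the one of its first-numbered GENCODE M21 transcript was taken. Capitals mark TGACG, the core of the cyclic AMP response element that CREB binds, on either strand (CGTCA on the printed one), and in Egr2 also the CArG box (CC, then 6 bases that are A or T, then GG), the element of serum response factor.
Nr4a1 (chr15:101266596-101266845, plus strand): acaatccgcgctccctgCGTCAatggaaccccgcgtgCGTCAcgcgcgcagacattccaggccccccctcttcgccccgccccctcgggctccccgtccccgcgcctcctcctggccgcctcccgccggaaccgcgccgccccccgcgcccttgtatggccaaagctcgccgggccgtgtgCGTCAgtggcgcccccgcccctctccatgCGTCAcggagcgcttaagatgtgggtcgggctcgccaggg
Nr4a2 (chr2:57124004-57124253, minus strand): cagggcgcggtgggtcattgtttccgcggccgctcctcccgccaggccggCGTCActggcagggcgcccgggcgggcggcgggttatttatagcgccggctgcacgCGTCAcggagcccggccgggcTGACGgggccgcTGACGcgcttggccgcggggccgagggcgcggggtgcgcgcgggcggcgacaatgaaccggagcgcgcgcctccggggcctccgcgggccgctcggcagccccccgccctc
Nr4a3 (chr4:48045055-48045304, plus strand): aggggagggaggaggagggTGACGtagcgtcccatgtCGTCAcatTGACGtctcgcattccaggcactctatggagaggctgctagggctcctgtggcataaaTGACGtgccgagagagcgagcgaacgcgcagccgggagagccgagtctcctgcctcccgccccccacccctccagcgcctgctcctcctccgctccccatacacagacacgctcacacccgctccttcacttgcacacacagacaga
Egr2 (chr10:67537619-67537868, plus strand): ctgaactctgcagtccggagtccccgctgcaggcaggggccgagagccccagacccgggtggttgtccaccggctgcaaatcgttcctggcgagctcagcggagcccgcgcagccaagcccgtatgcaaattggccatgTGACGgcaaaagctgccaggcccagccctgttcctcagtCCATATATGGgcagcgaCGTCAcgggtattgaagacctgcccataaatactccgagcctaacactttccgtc
Egr4 (chr6:85513590-85513839, minus strand): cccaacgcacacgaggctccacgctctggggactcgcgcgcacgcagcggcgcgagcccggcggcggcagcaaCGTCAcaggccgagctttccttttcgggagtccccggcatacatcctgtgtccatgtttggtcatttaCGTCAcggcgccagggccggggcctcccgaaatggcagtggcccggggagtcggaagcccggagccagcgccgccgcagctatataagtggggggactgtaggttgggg

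Each of the 5 windows held TGACG on one strand or the other, with 4 matches in each NR4A promoter and 2 each in Egr2 and Egr4, whereas 17.8% of 32851 RefSeq windows held at least 1. In Nr4a1 the matches began 233, 213, 69 and 40 bases before the start. The palindrome TGACGTCA was in none of the 5 windows, and in 1.55% of all. A CArG box lay in the Egr2 window, from 72 to 63 bases before the start, between its TGACG matches, and 1.47% of all windows held one. The EGR site GCGNGGGCG, where N is any base, was found on either strand in the windows of Nr4a1 and Nr4a2 and in 4.70% of all, with no overlap with a TGACG match. The sequence AAAGGTCA, bound by NR4A monomers, and the E-box CAGATG, a form that NEUROD1 binds, were in none of the 5, against 1.34% and 14.4% of all windows. A match describes the letters in the window and not whether a factor was bound.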

How the data were processed

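The authors deposited FPKM values of both libraries in 1 table. Tools listed in the submitters' processing notes are featureCounts 1.6.3, Bowtie2 2.3.5.1 and DESeq, with GRCm38 as build. For strand and molecular identifiers, their use was not given in the sources used here. Merged exon lengths came from GENCODE M21, an annotation of GRCm38. FPKM times length is a whole multiple of 512.7 in NeuroD1 and 452.7 in GFP, the value of 1 read, for 51162 genes (95.7%) within 0.02 reads. For Nr4a1, pairs of whole reads that imply the same whole length in both libraries within 1e-07, and within 35% of the annotated length, were used, a step added after seeing the data. The recovery of whole reads and the counting intervals were tested on simulated libraries that had counting error only. For the Nr4a1 step the simulation checked the ratio of the reads, and not the choice of length. With 1 library per group, no count model was run and no p-value was computed; whether reads are separate molecules is not known. Members and gene lists were chosen with earlier results of these data known. All 7 members are named, and of each other list the 2 genes with the highest mean FPKM and the 2 with the largest difference, among genes with at least 1 FPKM in one library or both, plus the 3 protein-coding genes nearest to Egr1 and to Nr4a1; 2 of the genes so chosen are not reported here. Widened intervals are normal ones on the log ratio, with the variance ratio taken from the median over genes. Alternatives were other pseudocounts, FPKM minimums and scalings, subtraction of the median of genes of similar level or of chemoreceptor genes, and families without their most abundant gene. Software was matplotlib 3.10.9, scipy 1.17.1, numpy 2.4.6 and pandas 2.3.3 under Python 3.11.15.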

Additional observations from a re-analysis of the deposited data

How the results depend on the processing

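No paired analysis was possible because NeuroD1 and GFP had 1 library each, and no replicate could be left out. The median difference of the members, -0.32, was -0.41 with a pseudocount of 0.1, -0.18 with a pseudocount of 5, -0.42 with the chemoreceptor median subtracted, -0.48 over the 4 members with at least 5 FPKM and -0.49 when FPKM were made to sum to one total in both libraries. Equal totals moved the median of all protein-coding genes to -0.19 in place of -0.02, and under it 4 members had an interval below 1, with Nr4a2 (upper end 0.995) as the fourth. The count of members below 0, 5 of 7, was 3 of 4 at 5 FPKM, where fewer members are counted by construction, and 6 of 7 with equal FPKM totals. The summed EGR ratio of 0.688 was 0.898 without Egr1. Of 49 differences of single members under the other settings, all moved by less than counting error and 48 kept their sign, Egr3 with equal FPKM totals being the exception. Many of these signs were fixed or nearly so in advance, because a pseudocount cannot change a sign. Scaling without genes above 1000 FPKM and scaling by the median of gene ratios multiplied NeuroD1 values by only 1.003 and 1.006. Egr1 ranged from -0.97 to -0.56, Nr4a1 from -0.91 to -0.58 and Egr2 from -1.45 to -0.46. Under 50 reads per library for Egr2, Egr3 and Egr4, and for Nr4a3 in NeuroD1, limit what could be told apart. The scalings of intervals and sums, the widened intervals and the longer Nr4a1 length were chosen after seeing the data.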
